A study of Mus musculus with 8 samples.

Results

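The genes described here are 5 transcription factors used by interleukin-17-producing helper T cells (Th17 cells), Rora, Maf, Ahr, Hif1a and Rbpj, together with Il23r, which encodes the receptor chain specific for interleukin-23. They were taken by symbol, and each matched 1 row of the 32285 gene rows in all 4 RNA libraries, so 6 of 6 genes were found. The cells were conventional CD4+ T cells from Foxp3-Cre-YFP mice with experimental autoimmune encephalomyelitis (EAE), a model of multiple sclerosis in which immunization makes T cells attack the brain and spinal cord. The groups were day 50 spinal cord, day 50 brain, day 14 spinal cord and day 14 brain after immunization, with 1 RNA library and 1 antibody library each. The brain was taken without its meninges, and cells were sorted as CD44+, TCRβ+, CD11b- and negative for the Foxp3 reporter, so that Foxp3-expressing regulatory T cells were gated out in every group. All mice carried the same reporter genotype and all had EAE, and how many mice went into each library is not given in the labels. The study profiled these cells in the acute (day 14) and the chronic (day 50) stage by CITE-seq, which reads RNA and barcoded antibodies to 3 surface proteins (CD69, P2X7 and CXCR6) in the same droplet.

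Th17 cells are made when IL-6 and TGF-β act on activated CD4+ T cells, and IL-23 then keeps them going and drives a tissue-damaging programme in EAE. RORα, encoded by Rora, is a nuclear receptor that acts with its relative RORγt at the interleukin-17 genes. c-MAF, encoded by Maf, acts both in Th17 cells and at Il10, the gene of a restraining cytokine. The aryl hydrocarbon receptor, encoded by Ahr, is a ligand-gated factor needed for Il22 expression, and HIF-1α, encoded by Hif1a, switches on glycolysis genes and is known to favour the Th17 fate. RBP-J, encoded by Rbpj, is the DNA-binding partner of Notch, and in mouse Th17 cells it is known to act at the Il23r promoter.

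Promoter windows are shown for Il23r, Rora and Rbpj, the 3 genes that were higher past 1.5-fold in cells with Il17a transcripts in at least 3 of the 4 libraries, because RBP-J reads a short DNA core and one of them encodes RBP-J itself. The windows run from 250 bases before to 50 bases after a transcript start on the gene's own strand, 5′ to 3′, from RefSeq (GRCm38.p6). Of the 6 genes, 4 matched an entry of that set. Capitals mark the RBP-J core TGGGAA or its reverse complement.
Il23r promoter, chr6:67491806-67492105, minus strand: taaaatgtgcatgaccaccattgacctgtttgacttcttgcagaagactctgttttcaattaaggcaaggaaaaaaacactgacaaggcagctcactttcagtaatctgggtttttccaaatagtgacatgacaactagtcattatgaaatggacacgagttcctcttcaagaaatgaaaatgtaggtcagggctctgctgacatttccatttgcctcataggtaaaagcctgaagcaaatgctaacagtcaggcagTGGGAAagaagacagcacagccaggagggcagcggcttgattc
Rora promoter, chr9:68653536-68653835, plus strand: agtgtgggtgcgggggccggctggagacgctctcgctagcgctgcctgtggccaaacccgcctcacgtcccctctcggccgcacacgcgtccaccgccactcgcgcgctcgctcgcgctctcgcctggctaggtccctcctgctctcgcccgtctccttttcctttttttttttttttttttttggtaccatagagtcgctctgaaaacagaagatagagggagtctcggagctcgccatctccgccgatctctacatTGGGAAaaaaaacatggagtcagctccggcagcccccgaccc
Rbpj promoter, chr5:53590096-53590395, plus strand: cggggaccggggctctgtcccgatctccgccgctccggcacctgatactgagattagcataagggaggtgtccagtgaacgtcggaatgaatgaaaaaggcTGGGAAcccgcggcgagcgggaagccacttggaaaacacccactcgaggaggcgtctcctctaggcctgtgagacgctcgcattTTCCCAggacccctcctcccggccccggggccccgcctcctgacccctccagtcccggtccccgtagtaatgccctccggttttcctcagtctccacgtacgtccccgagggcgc
The core occurred 1 time in the Il23r window, 1 time in the Rora window and 2 times, once on each strand, in the Rbpj window shown, and it did not occur in the Hif1a window (chr12:73907617-73907916, plus strand). The set holds a second Rbpj window, chr5:53590236-53590535, which overlaps the one shown and holds 1 match. The core was also present in 25.6% of the 32851 promoter windows of the set, so its presence in a single window is a common event. Of the other cores looked for on both strands, the hypoxia response core ACGTG (19.6% of windows) matched 3 times in the Hif1a window and 1 time each in those of Rora and Rbpj. The 3 matches in the Hif1a window lie at 2 places, since CACGTG holds the core on both strands. The aryl hydrocarbon receptor core GCGTG (32.4% of windows) matched 1 time in the Rora window, and the ROR core AGGTCA (16.3% of windows) matched 2 times in the Il23r window and 1 time in that of Hif1a. For Il23r the start used is the outer end of the annotated gene (chromosome 6, 67422932 to 67491855), whereas for Rora, Rbpj and Hif1a it lies inside the annotated span.

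Values are counts of unique molecular identifiers (UMIs, 1 per captured RNA molecule) in cells in which 500 or more genes were seen and mitochondrial UMIs made up 10% or less. There were 1620 such cells in day 50 spinal cord, 348 in day 50 brain, 9270 in day 14 spinal cord and 10313 in day 14 brain, with median depths of 3470.5, 3014.5, 4921 and 4004 UMIs per cell in that order. The day 50 libraries are thus small and shallower, and day 50 brain held 1177903 UMIs in all against 47272714 in day 14 brain. The day 14 spinal cord and brain libraries shared 34 barcodes, and no other pair shared more than 5. All 8 markers of conventional CD4+ T cells were detected in every library, with a summed level of 6597 to 6892 counts per 1000000 UMIs (CPM), and Foxp3 had 0 to 2 UMIs per library. Of the other lineages, the 4 B cell markers summed to 0.658 to 1.70 CPM and the 2 CD8 markers to 4.24 to 6.63 CPM. The 7 gamma-delta T cell markers summed to 22.7 CPM in day 50 spinal cord, 12.7 CPM in day 50 brain, 6.72 CPM in day 14 spinal cord and 9.03 CPM in day 14 brain. The 8 myeloid markers summed to 162 to 211 CPM, most of it from Cst3, and the defining microglial genes P2ry12, Tmem119 and Sall1 had 0 to 5 UMIs. No cell population that should lack the 6 genes was present, so how much free RNA contributes to a low share of cells was not tested.

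Because each group is 1 library, no test across animals was possible and no p-value is given. Intervals are exact 95% intervals (Poisson for CPM, conditional binomial for ratios, Clopper-Pearson for shares) that cover counting error only. Ratios are given as log2 values after subtracting the median over the 6561 genes with a mean of at least 10 CPM over the 4 libraries, a median shift of -0.12 in brain and -0.29 in spinal cord for day 50 over day 14, 0.18 at day 14 and 0.04 at day 50 for spinal cord over brain. A gene is called past the fold at 1.5-fold or more. Of the 6 genes, 5 passed the 10 CPM minimum, and Il23r, with a mean of 3.58 CPM over the 4 libraries, did not. Shares of all genes tested cover genes past that minimum, so counts are also given over the 5 genes without Il23r.

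Rora was lower at day 50 than at day 14 in both tissues, but by less than 1.5-fold after centring. Its level was 125 CPM (116 to 134) in day 50 spinal cord, 162 CPM (140 to 187) in day 50 brain, 206 CPM (202 to 210) in day 14 spinal cord and 223 CPM (219 to 227) in day 14 brain. The 4 levels are in that order and their counting intervals do not overlap. After every cell was thinned to 2000 UMIs, so that libraries of different depth can be compared, Rora was seen in 19.9% of spinal cord and 21.6% of brain cells at day 50, against 31.3% and 31.1% at day 14. Without thinning these shares were 29.7% and 29.9% at day 50, against 57.8% and 48.4% at day 14.

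Maf had its highest level in day 50 brain. It stood at 111 CPM (103 to 120) in day 50 spinal cord, 204 CPM (179 to 231) in day 50 brain, 118 CPM (115 to 121) in day 14 spinal cord and 98.8 CPM (96 to 102) in day 14 brain. Brain at day 50 stood above the other 3 libraries, and the intervals of both spinal cord libraries overlapped. After thinning, 16.5% of spinal cord and 26.4% of brain cells at day 50 carried a Maf UMI, against 18.5% and 16.6% at day 14, and without thinning the shares were 26.0% and 30.5% at day 50, against 35.4% and 28.2% at day 14. Brain at day 50 also had 2.26 Maf UMIs per positive cell, against 1.61 in day 14 brain. The regulatory T cell marker list (Foxp3, Ikzf2, Il2ra and Ctla4) was highest in the same library, at 362 CPM, against 223 CPM in day 50 spinal cord, 139 CPM in day 14 spinal cord and 254 CPM in day 14 brain. Foxp3, its defining gene, had 0 UMIs in day 50 brain and 2 in day 14 brain, and the part of this list in the Maf level was not tested.

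Ahr was a low-level transcript everywhere. It reached 14.0 CPM (11.2 to 17.3) in day 50 spinal cord, 15.3 CPM (9.06 to 24.2) in day 50 brain, 10.6 CPM (9.77 to 11.6) in day 14 spinal cord and 9.27 CPM (8.42 to 10.2) in day 14 brain. The brain value at day 50 rests on 18 UMIs, and its interval overlaps those of the other 3 libraries. Thinned shares ran from 1.93% in day 14 brain to 2.15% in day 14 spinal cord, with those of day 50 in between, and the unthinned shares ran from 3.67% to 5.02%.

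Hif1a was lower at day 50 than at day 14 in both tissues. It had 284 CPM (271 to 298) in day 50 spinal cord, 334 CPM (302 to 369) in day 50 brain, 491 CPM (485 to 497) in day 14 spinal cord and 404 CPM (398 to 410) in day 14 brain. All 4 intervals were apart from one another, with both day 50 libraries below both day 14 libraries. Thinned shares followed the same order, at 35.3% and 38.8% of spinal cord and brain cells at day 50, against 53.7% and 49.1% at day 14, and unthinned shares were 49.3% and 49.4% at day 50, against 77.8% and 68.2% at day 14.

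Of the 6 genes, Rbpj differed most between tissues at day 14. Its level was 84.7 CPM (77.6 to 92.4) in day 50 spinal cord, 126 CPM (107 to 149) in day 50 brain, 256 CPM (252 to 260) in day 14 spinal cord and 113 CPM (110 to 116) in day 14 brain. The day 14 spinal cord stood above the other 3 libraries, and the 2 brain libraries overlapped within their intervals. More cells carried it and each positive cell carried more of it there: after thinning, 31.2% of day 14 spinal cord cells had an Rbpj UMI against 15.8% of day 14 brain cells, and positive cells held 2.73 against 1.92 UMIs before thinning. At day 50 the thinned shares were 13.3% in spinal cord and 18% in brain. Unthinned shares were 20.2% and 23.9% at day 50 in spinal cord and brain, against 51.3% and 26.9% at day 14.

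Il23r was rare. There were 13 UMIs in day 50 spinal cord (2.14 CPM, 1.14 to 3.66), 1 UMI in day 50 brain (0.849 CPM, 0.0215 to 4.73), 368 UMIs in day 14 spinal cord (7.26 CPM, 6.53 to 8.04) and 193 UMIs in day 14 brain (4.08 CPM, 3.53 to 4.70). The day 14 spinal cord had the highest level, and the day 50 brain, where a limit of 3 UMIs corresponds to 2.55 CPM, was too small to place. In thinned cells Il23r was seen in 0.469% at day 50 in spinal cord, in 0 of 250 at day 50 in brain (where a limit of 3 counts allows up to 1.2% of cells with an Il23r UMI at that depth, which is no limit on cells that express it), in 1.28% at day 14 in spinal cord and in 0.743% at day 14 in brain. Unthinned shares were 0.679%, 0.287%, 3.51% and 1.68% in the same order.

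**Figure D1:**
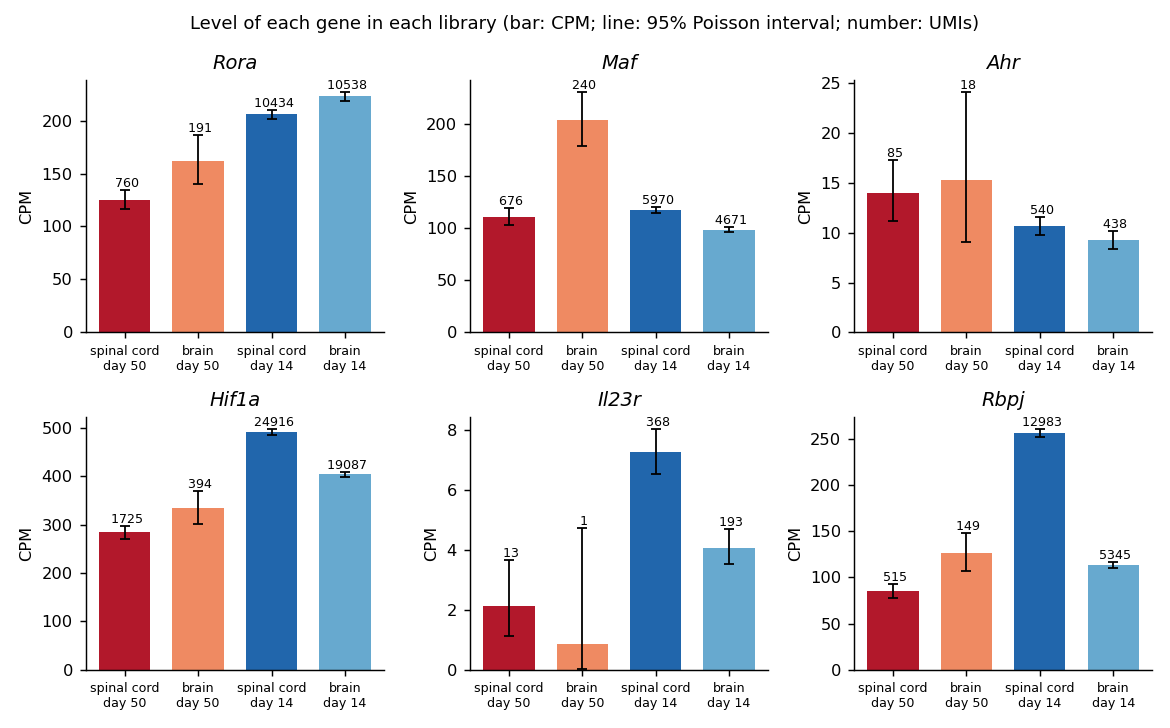
Level of each of the 6 genes in CPM (y axis, from 0) in the 4 libraries, with 95% Poisson intervals and the number of UMIs above each bar. Hif1a and Rora are lower in both day 50 libraries than in either day 14 library, Maf stands at 204 CPM in day 50 brain, and Rbpj at 256 CPM in day 14 spinal cord.

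In the brain, Maf was 2.25-fold higher at day 50 than at day 14 and Ahr 1.80-fold higher, while the single Il23r UMI of day 50 put Il23r lower. The log2 ratio was 1.17 (0.97 to 1.36) for Maf, 0.85 (0.08 to 1.52) for Ahr and -2.14 (-7.45 to 0.35) for Il23r, whose interval includes 0. Rbpj at 0.29, Hif1a at -0.15 and Rora at -0.34 were within 1.5-fold. Thus 3 of 6 genes, or 2 of the 5 without Il23r, were past the fold, against 17.4% of the 6561 genes tested (9.65% higher and 7.74% lower). The Ahr ratio was 0.43 when cells with UMIs of other lineages were left out. Ahr in day 50 brain rests on 18 UMIs, 27.8% of them in its 2 richest cells. Its thinned share in brain was 2% at day 50 and 1.93% at day 14.

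In the spinal cord, Rbpj was lower at day 50 than at day 14, at -1.30 (-1.43 to -1.18), as was Il23r at -1.47 (-2.39 to -0.68), and Ahr was higher at 0.69 (0.34 to 1.02). Hif1a at -0.50 and Rora at -0.43 lay just inside 1.5-fold after centring, and without centring their values were -0.79 and -0.72. Maf was within the fold at 0.21. Again 3 of 6 genes, or 2 of the 5 without Il23r, were past the fold, against 21.6% of all genes tested (11.1% higher and 10.5% lower). The Ahr ratio was 0.39 without centring, inside 1.5-fold, and 0.29 when all cells were thinned to 2000 UMIs.

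Between tissues at day 14, Rbpj was 2.0-fold higher in spinal cord than in brain (log2 1.0, 0.95 to 1.05) and Il23r 1.57-fold higher (0.65, 0.39 to 0.91). Rora was at -0.30, and Maf at 0.07, Ahr at 0.02 and Hif1a at 0.10 were close to the median gene. These are 2 of 6 genes past the fold, or 1 of the 5 without Il23r, against 7.18% of all genes tested (3.58% higher and 3.60% lower), and Il23r was at 0.24 when cells with UMIs of other lineages were left out. At day 50, Maf was lower in spinal cord than in brain, at -0.91 (-1.13 to -0.70), as was Rbpj at -0.62 (-0.88 to -0.35), and Il23r, with 13 UMIs against 1, was at 1.29 (-1.44 to 6.70), an interval that includes 0. Rora at -0.42, Hif1a at -0.28 and Ahr at -0.17 were within the fold, so that 3 of 6, or 2 of the 5 without Il23r, were past it, against 12.1% of all genes tested (5.24% higher and 6.87% lower). The tissue comparisons use the same 4 libraries as the comparisons of days.

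Genes that work with each factor were taken as lists, to be read beside the shares of all genes just given and an all-gene median of 0 after centring. For HIF-1α, 19 hypoxia and HIF-1 target genes passed the 10 CPM minimum, and in spinal cord at day 50 against day 14 none was higher past the fold and 7 were lower, with a list median of -0.14. Ddit4, a stress-induced inhibitor of mTOR, had 9.21 against 81.5 CPM (-2.85), and Slc2a3, a glucose transporter, had 12.2 against 40.5 CPM (-1.44). In brain at day 50 against day 14, 3 were higher and 2 lower, with Hk2, a glycolytic hexokinase, at 67.9 against 37.7 CPM (0.97) and Ddit4 at 22.9 against 55.4 CPM (-1.15). Vegfa, below the 10 CPM minimum, was higher at day 50 in both tissues, with 12 against 33 UMIs in spinal cord (1.89) and 7 against 15 UMIs in brain (4.35). Between tissues, 1 was higher and 0 lower in day 14 spinal cord, and 0 higher and 4 lower at day 50, when Hk2 had 28.6 CPM in spinal cord and 67.9 CPM in brain (-1.29). Of the 5 partner and control genes of HIF-1α, Egln2, an oxygen-sensing hydroxylase, was the 1 past the fold in spinal cord across days (41.0 CPM at day 50 against 27.2 CPM at day 14, log2 0.88).

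For RBP-J, 11 Notch receptors, coactivators and targets were measured, and in spinal cord at day 50 against day 14 1 was higher and 4 were lower, with a list median of -0.52. The 1 higher was Psen2, a subunit of the protease that cleaves Notch, at 39.7 against 29.7 CPM (0.71), named after its value was seen. Dtx1, Nrarp and Hey1 of this list were below the 10 CPM minimum and so outside these counts. Dtx1, a Notch target, had 3.95 CPM at day 50 against 10.4 CPM at day 14 (-1.11). Nrarp, a Notch-induced feedback gene, was higher, with 13.2 against 8.18 CPM (0.98). Hey1 was higher too, with 3.78 against 0.868 CPM (2.42, 1.62 to 3.18) on 23 against 44 UMIs. In brain at day 50 against day 14, 1 of 11 was higher and none was lower, namely Notch2, a Notch receptor, at 54.3 against 36.8 CPM (0.69). At day 14, where Rbpj was 2.0-fold higher in spinal cord than in brain, none of the 11 was past the fold either way and the list median was 0.22. Below the minimum, Hey1 was lower in day 14 spinal cord, with 0.868 against 1.65 CPM (-1.11, -1.67 to -0.56). Hes1, also of this list and below the minimum, was at -0.81 (-2.22 to 0.53) on 9 against 13 UMIs. At day 50, 3 were lower in spinal cord than in brain, and the receptor genes Notch2 (31.6 against 54.3 CPM, -0.82) and Notch1 (24.8 against 36.5 CPM, -0.60) were among them.

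For Ahr, 1 of 7 target and partner genes was higher in spinal cord at day 50 than at day 14 and none lower: Tiparp, an AHR-induced repressor of AHR, had 63.8 against 30.0 CPM (1.38). In brain 1 of 7 was higher and 1 lower across days, Nfe2l2, the oxidative stress factor NRF2, with 0.62 (-0.00 to 1.18) and Arnt, the shared partner of AHR and HIF-1α, with -0.63 (-1.69 to 0.26). Of 7 circadian genes that are targets or partners of RORα, 3 were higher and 2 lower in spinal cord at day 50 than at day 14, and Per1, a clock repressor, had 55.9 against 17.2 CPM (2.0). Per1 was also higher at day 50 in brain, at 99.3 against 47.6 CPM (1.19). Of the 3 measured relatives of Maf, 2 were higher and none lower in spinal cord at day 50 than at day 14, and 1 was higher and 1 lower in brain. Maff had 39.0 against 5.58 CPM (3.1) in spinal cord at day 50 over day 14, and 38.2 against 19.1 CPM (1.13) in brain, where Mafg had 11.9 against 23.3 CPM (-0.85, -1.72 to -0.10).

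Of 9 genes of IL-23 and IL-6 receptor signalling, 2 were higher and 1 lower in spinal cord at day 50 than at day 14. Socs3, a feedback inhibitor of STAT3 signalling, had 100 CPM at day 50 against 41.0 CPM at day 14 (1.58), and Il12rb2, the IL-12-specific receptor chain, had 7.40 against 26.0 CPM (-1.52). Of 15 AP-1, IRF and other Th17 factors, 2 were higher and 2 lower in spinal cord at day 50 than at day 14. Junb stood at 4256 against 1229 CPM (2.08) and Fosl2 at 67.9 against 25.5 CPM (1.71), both higher at day 50, while Bcl6, a repressor of other helper fates that was below the 10 CPM minimum, had 4.11 against 14.3 CPM (-1.5). Junb, Fosl2, Maff and Per1 were higher at day 50 in both tissues. At day 14 Junb was lower in spinal cord than in brain (-1.33).

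Cells were then divided by whether they carried UMIs of Il17a, the signature cytokine of Th17 cells. Cells with Il17a UMIs numbered 45 of 1620 in day 50 spinal cord, 38 of 348 in day 50 brain, 648 of 9270 in day 14 spinal cord and 890 of 10313 in day 14 brain. Rbpj was higher in these cells past the fold in all 4 libraries and Rora and Il23r in 3 libraries each, and none of the 6 genes was lower past the fold in any library. Over the 24 values (6 genes in 4 libraries), 14 were higher past the fold, or 11 of 20 without Il23r, against 11.5% of the values of all genes tested. By library, all genes tested passed in the higher direction in 17.1% of cases in day 50 spinal cord, 24.4% in day 50 brain, 2.70% in day 14 spinal cord and 2.29% in day 14 brain, where the 6 genes passed in 3, 3, 4 and 4 cases. The count in day 50 brain includes Ahr on 4 UMIs. The 4 regulatory T cell markers also summed higher in cells with Il17a UMIs in every library, at 604 against 208 CPM in day 50 spinal cord, 784 against 297 CPM in day 50 brain, 258 against 128 CPM in day 14 spinal cord and 438 against 231 CPM in day 14 brain. Most of this was Ctla4, a checkpoint receptor also carried by activated T cells, while Foxp3 had 0 UMIs in the Il17a-positive cells of all 4 libraries and Ikzf2 was lower there than in cells without Il17a in each. The part of this list in the ratios was not tested.

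Rbpj was past the fold in all 4 libraries. It had 255 CPM in cells with Il17a UMIs against 78.2 CPM in cells without in day 50 spinal cord (log2 1.72, 1.29 to 2.12), and 306 against 98.9 CPM in day 50 brain (1.64, 1.12 to 2.15). At day 14 it had 439 against 239 CPM in spinal cord (0.87, 0.79 to 0.94) and 210 against 101 CPM in brain (1.03, 0.93 to 1.13). The 239 CPM of cells without Il17a in the day 14 spinal cord lay within the range of the Il17a-positive cells of the other 3 libraries, 210 to 306 CPM. Rbpj stayed past the fold in each library under every alternative that gave a value for it.

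Rora, the nuclear receptor gene, had 242 CPM with Il17a against 121 CPM without in day 50 spinal cord (1.01, 0.59 to 1.41) and 331 against 136 CPM in day 50 brain (1.30, 0.81 to 1.77). At day 14 it had 337 against 209 CPM in brain (0.67, 0.59 to 0.74) and, within the fold, 273 against 199 CPM in spinal cord (0.44, 0.35 to 0.52). Rora thus lay at 242 to 337 CPM in the Il17a-positive cells of all 4 libraries, while cells without Il17a had 121 and 136 CPM at day 50 and 199 and 209 CPM at day 14.

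Il23r showed the sharpest concentration. In day 50 spinal cord, 11 of its 13 UMIs lay in the 45 cells with Il17a, that is 84.6% (54.6 to 98.1%) of its UMIs in 2.78% of the cells, which held 3.68% of all UMIs. The ratio was 7.18 (4.99 to 10.40), it rests on 2 UMIs outside those cells, and it was 6.60 without the 2 cells richest in Il23r and 7.41 with a threshold of 3 Il17a UMIs. At day 14 the same cells held 62 of 368 Il23r UMIs in spinal cord, or 16.8% (13.2 to 21.1%), and 60 of 193 in brain, or 31.1% (24.6 to 38.1%), and the ratios were 1.11 (0.69 to 1.5) and 1.85 (1.38 to 2.30). Most Il23r UMIs at day 14 were therefore in cells in which Il17a was not seen. Gamma-delta T cell markers, a lineage that can carry both genes, summed to 4.47 CPM in the Il17a-positive cells of the day 50 spinal cord, with 6 of 7 at 0, against 23.4 CPM in the cells without. In the other 3 libraries they were higher with Il17a, at 31.9 against 9.79 CPM in day 50 brain, 11.8 against 6.25 CPM in day 14 spinal cord and 10.0 against 8.91 CPM in day 14 brain, mostly through Tcrg-C1. Trdc, which encodes the constant region of the delta chain, had 0, 0, 1 and 11 UMIs in the Il17a-positive cells of the 4 libraries in the order day 50 spinal cord, day 50 brain, day 14 spinal cord and day 14 brain. The part of these markers in the Il23r ratios was not tested.

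Maf, Ahr and Hif1a followed Il17a less evenly. Maf was higher at day 14, with 244 against 106 CPM in spinal cord (1.19, 1.10 to 1.29) and 149 against 92.6 CPM in brain (0.66, 0.55 to 0.77), while at day 50 its ratios were 0.48 (-0.06 to 0.98) in spinal cord and 0.02 (-0.57 to 0.56) in brain. Without cells carrying UMIs of other lineages, the Maf ratio in day 14 brain was 0.21. Ahr had ratios of 0.66 (0.28 to 1.03) in day 14 spinal cord and 0.42 (0.01 to 0.81) in day 14 brain, with 4 UMIs in Il17a-positive cells in each day 50 library. Hif1a lay above 0 in 4 of 4 libraries, from 0.27 in day 14 brain to 0.54 in both spinal cord libraries, and was past the fold in none.

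**Figure D2:**
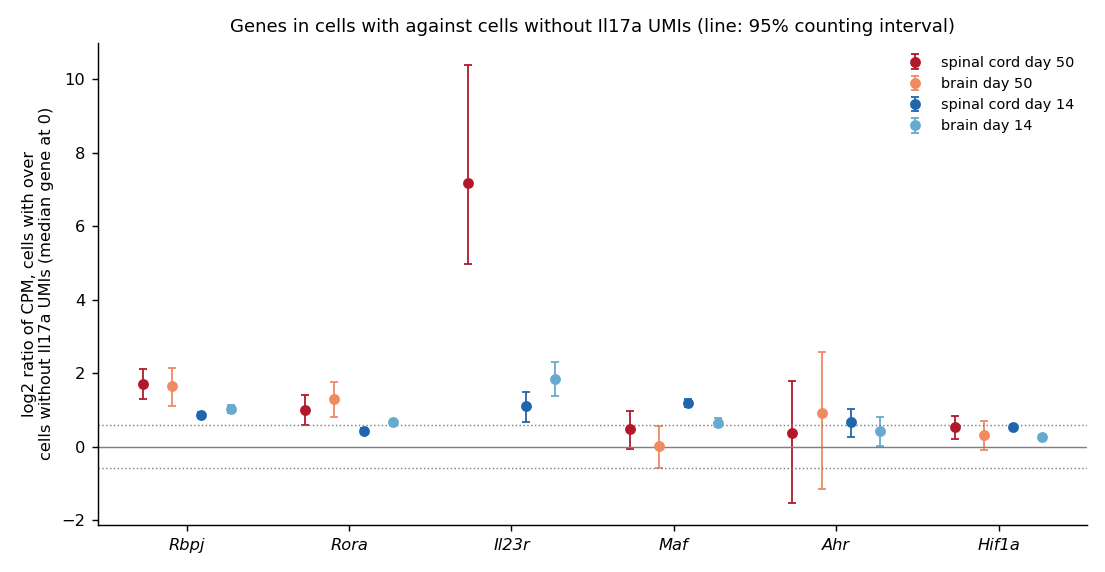
Log2 ratio of CPM in cells with over cells without Il17a UMIs (y axis, the median gene at 0) for each gene and library, with 95% counting intervals and dotted lines at 1.5-fold. Rbpj lies above the upper dotted line in all 4 libraries, from 0.87 to 1.72, and Il23r in day 50 spinal cord reaches 7.18 on 13 UMIs; Il23r in day 50 brain had 1 UMI and is not drawn.

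Cells in which Il23r itself was seen, 325 in day 14 spinal cord and 173 in day 14 brain, could be compared with the rest at day 14 only, since day 50 had 11 and 1 such cells. In brain, Rora had 366 CPM with Il23r against 220 CPM without (0.70, 0.55 to 0.85), Maf 165 against 97.3 CPM (0.73, 0.50 to 0.95) and Ahr 16.2 against 9.11 CPM (0.80, 0.01 to 1.5). In spinal cord the same genes were at 0.38, 0.38 and -0.04. Hif1a (0.40 in spinal cord, 0.47 in brain) and Rbpj (0.35 in spinal cord, 0.27 in brain) were within the fold. In all, 3 of 10 values were past the fold, all in brain, against 2.41% of the values of all genes tested. That of Ahr rests on 17 UMIs in cells with Il23r. Only 18 brain cells had 2 or more Il23r UMIs, under the minimum of 20, so the brain values could not be checked at that threshold.

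Taken by pairs, Rbpj went with Hif1a, but not alone. Rora in cells with over cells without Hif1a UMIs was at 0.37 in day 50 spinal cord and 0.86 in day 50 brain. At day 14 it was at 0.13 in spinal cord and 0.41 in brain. Depth was not matched between the sides of these splits, and no share of all genes past the fold was taken for them. Rbpj was higher in cells with Hif1a UMIs than in cells without in every library, at 0.97 (0.69 to 1.25) in day 50 spinal cord, 0.41 (-0.09 to 0.92) in day 50 brain, 0.83 (0.75 to 0.91) in day 14 spinal cord and 0.69 (0.59 to 0.80) in day 14 brain. Hif1a in cells with over cells without Rbpj UMIs was past the fold in day 50 spinal cord only, at 0.61. It was 0.40 in day 50 brain, 0.41 in day 14 spinal cord and 0.17 in day 14 brain. Rbpj by Rora UMIs was at 0.78 in day 50 spinal cord, 0.81 in day 50 brain, 0.07 in day 14 spinal cord and 0.40 in day 14 brain. Maf, in contrast, was lower in cells with Rora UMIs at day 50. Maf had 79.6 CPM in cells with Rora UMIs against 128 CPM in cells without in day 50 spinal cord (-0.70, -0.97 to -0.45), and 140 against 241 CPM in day 50 brain (-0.84, -1.29 to -0.42). The reverse split, Rora in cells with over cells without Maf UMIs, was within the fold at day 50, at -0.42 (-0.68 to -0.17) in spinal cord and -0.42 (-0.90 to 0.04) in brain. At day 14 the ratios of Maf by Rora were 0.10 in spinal cord and -0.03 in brain. In thinned cells, none of the 6 genes was seen in 37.2% of spinal cord cells and 27.6% of brain cells at day 50, against 19.2% and 26.1% at day 14, and no cell of any library showed all 6.

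Other cytokines divided the factors further, with 66 values where both sides held at least 20 cells. Of these, 10 were higher past the fold, against 6.77% of the values of all genes tested, and 12 lower, against 7.59%. Without Il23r, 8 of 55 were higher and 9 lower. Rbpj followed Csf2, the gene of GM-CSF, a cytokine required for EAE. Cells with Csf2 UMIs had 140 CPM of Rbpj against 83.0 CPM without in day 50 spinal cord (0.81, 0.16 to 1.38), 461 against 232 CPM in day 14 spinal cord (0.99, 0.93 to 1.06) and 260 against 98.6 CPM in day 14 brain (1.37, 1.27 to 1.47). Hif1a was past the fold with Csf2 in day 14 spinal cord (725 against 464 CPM, 0.65, 0.60 to 0.70) and within it in day 14 brain (0.27). Rora, Ahr and Il23r stayed within the fold with Csf2 at day 14. In day 50 spinal cord, with 40 cells carrying Csf2 UMIs, Rora was higher and Ahr lower past the fold.

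When cells were sorted by the combination of Il17a, Csf2 and Ifng UMIs, Rbpj was higher with each of the first pair. In day 14 brain it had 346 CPM (289 to 411) in the 62 cells with Il17a and Csf2 but no Ifng, 172 CPM (157 to 189) in cells with Il17a alone, 204 CPM (175 to 237) with Csf2 alone, 110 CPM (105 to 115) with Ifng alone and 72.4 CPM (68.9 to 76.1) in cells with none. In day 14 spinal cord the same classes had 542, 410, 423, 250 and 191 CPM. Rora in day 14 brain was highest with Il17a alone, at 384 CPM (361 to 408), against 203 CPM (197 to 209) in cells with none. Hif1a in day 14 spinal cord reached 956 CPM (865 to 1054) with Il17a and Csf2, against 439 CPM (431 to 448) with none. Cells with more cytokine UMIs were also deeper, with a median of 5691 UMIs in the brain cells with Il17a and Csf2 against 3437 in those with none.

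Ahr was lower in cells with UMIs of Ifng, the cytokine of Th1 cells, in each library, and Il23r was lower past the fold in 2 of 4. Ahr had ratios of -0.61 (-1.33 to 0.07) in day 50 spinal cord, -1.96 (-4.39 to -0.14) in day 50 brain with 3 against 15 UMIs, -0.91 (-1.18 to -0.65) in day 14 spinal cord and -0.71 (-1.01 to -0.43) in day 14 brain. It was past the fold in 4 of 4 libraries, where all genes tested were lower past the fold in 3.20%, 14.8%, 0.503% and 1.46% of cases in that order, and the 2 day 14 values rest on 173 against 367 and 154 against 284 UMIs. Il23r had 2.73 CPM with Ifng against 5.26 CPM without in day 14 brain (-0.98, -1.44 to -0.53) and 6.25 against 8.15 CPM in day 14 spinal cord (-0.40, -0.71 to -0.09). In day 50 spinal cord, 1 of the 13 Il23r UMIs was in a cell with Ifng (-3.10, -8.51 to -0.34), and in day 50 brain the single Il23r UMI was in a cell with Ifng, which allows no ratio.

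Il23r was high in cells with UMIs of Il22, another Th17 cytokine: 15.7 CPM against 6.87 CPM in day 14 spinal cord (1.18, 0.64 to 1.69) and 15.7 against 3.24 CPM in day 14 brain (2.26, 1.77 to 2.73). Ahr, known as a regulator of Il22, was within the fold in these cells, at 0.24 (-0.36 to 0.79) in spinal cord and 0.50 (0.00 to 0.97) in brain. Maf was highest in cells with Il10 UMIs, with 585 against 116 CPM in the 28 such cells of day 14 spinal cord (2.33, 2.01 to 2.62) and 294 against 96.7 CPM in the 101 of day 14 brain (1.58, 1.34 to 1.82). Rora was lower in the same cells, at -0.93 (-1.71 to -0.25) in spinal cord and -0.79 (-1.16 to -0.44) in brain, and Rbpj was lower past the fold in brain (-0.83, -1.37 to -0.34). The regulatory T cell markers went with Il10 too, at 470 against 138 CPM in spinal cord and 557 against 251 CPM in brain. Ikzf2, which encodes the factor Helios, had 127 against 11.2 CPM in spinal cord and 155 against 19.0 CPM in brain, whereas Foxp3 had 0 UMIs in the Il10-positive cells of both. The part of this list in the Maf ratio was not tested.

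**Figure D3:**
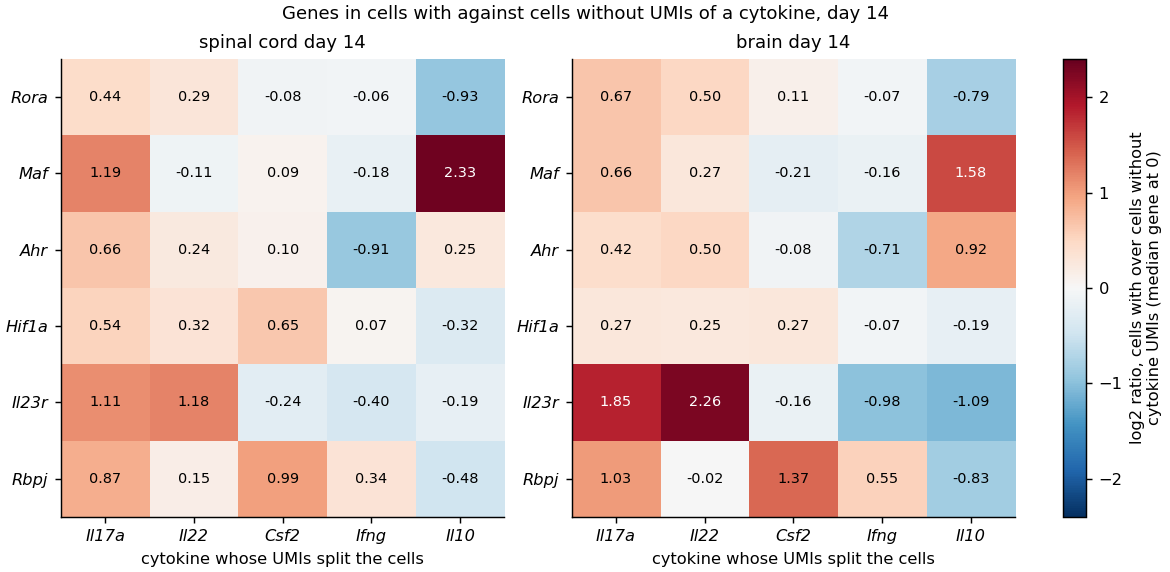
Log2 ratio of each gene (rows) in cells with over cells without UMIs of 5 cytokines (columns) in the 2 day 14 libraries, with the median gene at 0 and the value printed in each square. Maf with Il10 (2.33 and 1.58), Il23r with Il22 (1.18 and 2.26) and Rbpj with Csf2 (0.99 and 1.37) are red, and Ahr with Ifng (-0.91 and -0.71) is blue in spinal cord and brain.

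The antibody counts gave a second readout in the same cells. The antibody features carry the identifiers CD69, P2X7R and CXCR6 but the names CD69, CD3 and CD16, and the identifiers were used here because they match the labels. In day 14 spinal cord cells with P2rx7 UMIs had a median of 25 P2X7R antibody counts, against 7 for the rest. Cells with Cxcr6 UMIs had a median of 26 CXCR6 counts, against 9. CD69 counts differed less by transcript, with a median of 10 in cells with Cd69 UMIs against 8 for the rest. In day 50 brain these CD69 medians were 2 against 1. Counts were low in that library, with a median per cell of 1 for CD69, 1 for P2X7R and 3 for CXCR6. Cells with a count above the 75th percentile of their library were set against cells at or below the 25th. High-count cells were deeper in RNA, as with the median of 5318.5 against 3219 UMIs for CD69 in day 14 brain.

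CD69 is an early activation marker that also keeps T cells in tissue. Rbpj was higher in CD69-high cells in 4 of 4 libraries: 131 against 35.1 CPM in day 50 spinal cord (1.91, 1.48 to 2.35), 165.5 against 71.1 CPM in day 50 brain (1.21, 0.51 to 1.95), 350 against 132 CPM in day 14 spinal cord (1.38, 1.29 to 1.46) and 167.5 against 63.7 CPM in day 14 brain (1.37, 1.25 to 1.5). With cells grouped by quartile of CD69 count, from lowest to highest, Rbpj had 35.1, 79.0, 87.4 and 131 CPM in day 50 spinal cord, 132, 196, 301 and 350 CPM in day 14 spinal cord, and 63.7, 79.8, 118 and 167.5 CPM in day 14 brain. In the day 50 brain these groups had 71.1, 141, 137 and 165.5 CPM, with overlapping intervals for the upper 3. When high and low were taken within 5 bins of RNA depth, the ratios were 1.54, 0.75, 0.96 and 1.08 for day 50 spinal cord, day 50 brain, day 14 spinal cord and day 14 brain, in that order. Among cells without Il17a and Csf2 UMIs, an alternative added after the values were seen, they were 1.86, 0.62, 1.33 and 1.18 in that order.

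Of the 24 values for CD69, 8 were past the fold (6 higher and 2 lower, none of them Il23r), against 16.8% of the values of all genes tested, and 4 of the 8 were those of Rbpj. All genes tested were higher past the fold in CD69-high cells in 7.82% of cases in day 50 spinal cord, 21.4% in day 50 brain, 3.81% in day 14 spinal cord and 3.20% in day 14 brain. Hif1a lay above 0 in 4 of 4 libraries, from 0.22 to 0.47, within the fold. Maf differed by tissue at day 50: it was lower in CD69-high cells of spinal cord (79.0 against 134 CPM, -0.76, -1.08 to -0.45) and higher in those of brain (208 against 134 CPM, 0.64, 0.09 to 1.2). At day 14 Maf was at -0.02 in spinal cord and -0.24 in brain. In CD69-high against CD69-low cells at day 50 the regulatory T cell markers summed to 225 against 232 CPM in spinal cord and 434 against 302 CPM in brain, and the gamma-delta T cell markers to 39.8 against 11.9 CPM in spinal cord and 2.85 against 8.53 CPM in brain, and their part in these ratios was not tested.

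CXCR6, a chemokine receptor of T cells lodged in tissue, gave 13 of 24 values past the fold (9 higher and 4 lower), or 11 of 20 without Il23r, against 17.8% of the values of all genes tested. Ahr was past the fold in both directions, higher in 1 library and lower in 2, and Il23r was higher in 2. Rora was higher in CXCR6-high cells in every library, at 158 against 85.4 CPM in day 50 spinal cord (0.88, 0.56 to 1.2), 213 against 127 CPM in day 50 brain (0.71, 0.08 to 1.38), 227 against 171 CPM in day 14 spinal cord (0.40, 0.32 to 0.48) and 268 against 154 CPM in day 14 brain (0.80, 0.71 to 0.89). Only the day 14 spinal cord was within the fold, and within bins of RNA depth the ratios were 0.69, 0.79, 0.41 and 0.76 in that order. Rbpj was higher as well, at 1.25, 1.44, 0.45 and 1.18, but within bins of depth these became 0.48, 0.90, 0.18 and 0.61. Maf went the other way at day 50, with 77.9 CPM in CXCR6-high against 168 CPM in CXCR6-low cells of spinal cord (-1.12, -1.44 to -0.81) and 115 against 245 CPM in brain (-1.13, -1.75 to -0.52). At day 14 Maf was within the fold, at 0.18 in spinal cord and -0.06 in brain, and within bins of depth the day 50 values were -0.78 and -0.81. The regulatory T cell markers were lower in the same CXCR6-high cells at day 50, at 183 against 269 CPM in spinal cord and 291 against 516 CPM in brain, with no Foxp3 UMI in the CXCR6-high cells, and their part in the Maf ratios was not tested.

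For the ATP receptor P2X7, which marks T cells that can be killed by extracellular ATP, 8 of 24 values were past the fold (6 higher and 2 lower), or 7 of 20 without Il23r, against 15.3% of the values of all genes tested. Of these, 5 were in day 50 spinal cord, where Maf had 63.3 CPM in P2X7R-high against 185 CPM in P2X7R-low cells (-1.47, -1.80 to -1.14), Rora 155 against 96.2 CPM (0.76, 0.46 to 1.07), Hif1a 325 against 221 CPM (0.63, 0.43 to 0.83) and Rbpj 88.5 against 48.1 CPM (0.95, 0.53 to 1.38). Within bins of RNA depth the Rbpj value there was 0.12 and that of Maf -0.99. The regulatory T cell markers summed to 182 CPM in the P2X7R-high against 255 CPM in the P2X7R-low cells of the same library. The fifth was Ahr at 0.88 (-0.16 to 2.0), with 26 against 12 UMIs. Ahr in P2X7R-high cells was past the fold in day 14 spinal cord, with 12 against 7.55 CPM (0.65, 0.29 to 1.02), and within it in day 14 brain, with 11.6 against 7.85 CPM (0.56, 0.21 to 0.91), and it was lower in day 50 brain at -1.17 (-3.32 to 0.67), with 4 against 9 UMIs. Il23r had 5.52 against 2.31 CPM in day 14 brain (1.24, 0.65 to 1.87) and 8.44 against 6.44 CPM in day 14 spinal cord (0.37, -0.04 to 0.79).

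**Figure D4:**
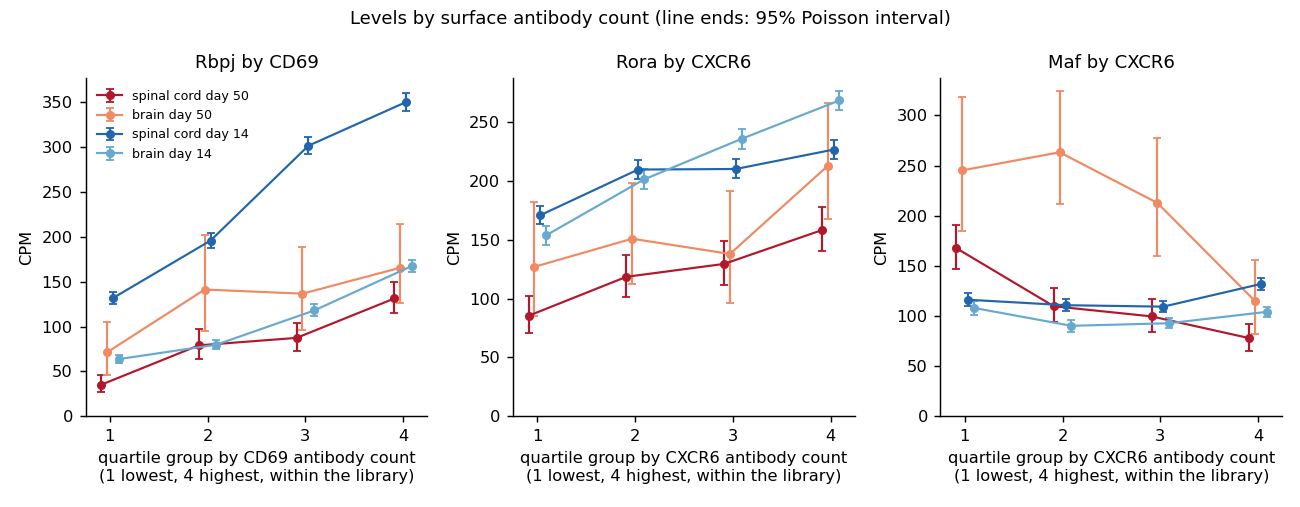
CPM (y axis, from 0) of Rbpj by quartile group of CD69 antibody count and of Rora and Maf by quartile group of CXCR6 antibody count (x axis, lowest to highest within each library), with 95% Poisson intervals. Rbpj reaches 350 CPM in the top CD69 group of day 14 spinal cord, and Maf has 77.9 CPM in day 50 spinal cord and 115 CPM in day 50 brain in the top CXCR6 group.

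Across single cells, the 3 genes most like each member were chosen among 4407 genes by their correlation in the day 14 libraries. Cells of a library share that library but differ in depth, and most correlations were weak. Those of Rbpj were the strongest, with Nrgn at r = 0.47 in day 14 spinal cord and 0.36 in day 14 brain, Ramp1, a component of the receptor for the neuropeptide CGRP, at 0.38 and 0.33, and Igfbp7 at 0.40 and 0.30. At day 50, which did not enter the choice, they were 0.28 in spinal cord and 0.32 in brain for Nrgn, 0.22 and 0.29 for Ramp1, and 0.28 and 0.33 for Igfbp7. For Hif1a the nearest were Furin, Bhlhe40 and Tnfrsf4, and for Rora they were Emb, Furin and S100a4, all between 0.13 and 0.35 in the 4 libraries. Those of Maf (Ctla4, Il17a and Rgs1), Ahr (Tnfsf8, Tmem176a and Tmem176b) and Il23r (Il1r1, Furin and Ramp1) stayed below 0.19 in every library.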

How the data were processed

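CITE-seq read RNA and 3 surface antibodies in CD4+ T cells of 4 groups, 8 samples in all, with 1 RNA library per group. The deposited values are UMI counts per gene or antibody and barcode, with antibody counts as features of the same matrices, per the file headers. Cell Ranger 6.1.1 and the mm10 build are named in the submitters' processing notes, and the authors had normalized nothing. Kept were cells in which 500 or more genes were seen and mitochondrial UMIs made up 10% or less, and no doublet caller was run, so doublets can raise how often 2 genes are seen together. Counts were summed over cells (Python 3.11.15, numpy 2.4.6, scipy 1.17.1, pandas 2.3.3) into CPM and ratios, centred on the median gene, with exact 95% intervals. Cells are not replicates, so conditions were compared as single libraries, without a test. A side under 20 cells gave no ratio, and a side without a UMI was set at 3 counts. Depth per library ran from 1177903 to 50710551 UMIs, where 3 UMIs correspond to 2.55 and 0.0592 CPM. The scripts were tested on simulated data. The 6 genes, the lists and the tests were chosen with earlier results of these data known. Genes of a list were named by rule: up to 3 per list and comparison, past 1.5-fold with 20 or more UMIs, whose interval lay farthest from 0; genes like a member were the 3 with the highest correlation at day 14. Alternatives changed the cell filter, depth, scaling, gene filter, single cells and thresholds.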

Additional observations from a re-analysis of the deposited data

Results flagged for a closer look

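Maf went in opposite directions with CD69 in the 2 tissues at day 50. Its log2 ratio in CD69-high over CD69-low cells was -0.76 (-1.08 to -0.45) in spinal cord and 0.64 (0.09 to 1.2) in brain, each past 1.5-fold. The difference between tissues was not tested, since each tissue is 1 library. Within 5 bins of RNA depth the values were -0.47 in spinal cord and 0.77 in brain. The CD69 counts behind the ratio were low in day 50 brain, where CD69-low cells had 0 counts and CD69-high cells 6 to 65. In day 50 spinal cord CD69-low cells had 0 to 1 counts and CD69-high cells 14 to 200.

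Rbpj was higher in spinal cord than in brain at day 14, with a log2 ratio of 1.0 (0.95 to 1.05), and lower in spinal cord than in brain at day 50, at -0.62 (-0.88 to -0.35). The difference between the days was not tested for the same reason. In cells with none of Il17a, Csf2 and Ifng, Rbpj had 73.0 CPM in day 50 spinal cord and 102.5 CPM in day 50 brain, and 191 CPM in day 14 spinal cord and 72.4 CPM in day 14 brain.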

How the results depend on the processing

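Over 11 to 14 alternatives per comparison, 114 of 122 counts of genes past 1.5-fold stayed within 1.5 times the values given. Of 2307 single ratios, 2102 moved by less than their counting interval and 201 by more. The other 4 were past 1.5-fold as given and changed sign. Sign changes of ratios within 1.5-fold were not counted apart. An example is Maf in spinal cord at day 50 over day 14, at 0.21 with and -0.08 without centring. The 3 of 6 genes in brain at day 50 over day 14 became 1 with cells thinned to 2000 UMIs, 1 without the 2 richest cells per gene and 1 without cells carrying UMIs of other lineages, which left 205 day 50 brain cells. The last alternative also gave 1 in place of 2 genes for spinal cord over brain at day 14, 8 of the 12 values left in place of 14 of 24 for Il17a, and 5 in place of 3 of 10 for Il23r. With 2 or more Il23r UMIs required, 0 of 5 values passed. These were all of day 14 spinal cord, since day 14 brain had only 18 such cells and gave no ratio. Quartiles taken within 5 bins of depth gave 5 in place of 8 for P2X7R. The 4 ratios past 1.5-fold that changed sign were all on few UMIs. Il23r in spinal cord over brain at day 50 was -0.27 with all deposited barcodes. Il23r by Il10 in day 14 brain was 0.66 without other-lineage cells. Ahr by CXCR6 in day 50 brain was -1.23 with the stricter cell filter, and Il23r by CXCR6 in day 50 spinal cord was -2.26 within bins of depth. The cause of these moves was not tested. The alternative without Il17a and Csf2 cells was chosen after seeing the data. No paired analysis was possible because there were no replicates to pair. Depth limits Il23r and Ahr at day 50, where brain held 1 and 18 of their UMIs.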
